A study of Mus musculus with 12 samples.

Results

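Retinoic acid synthesis and response genes were described in tail tip fibroblasts from newborn mice, connective tissue cells of the tail, with the long noncoding RNA gene Hotair disrupted on both copies, on 1 copy or on none. The members were taken by symbol. They are the synthesis enzymes Aldh1a1, Aldh1a2 and Aldh1a3, the binding proteins Crabp1 and Crabp2, the receptors Rara, Rarb and Rarg, and the degrading enzyme Cyp26b1. All 9 had a row among the 24132 gene symbols of the deposited expression table. Polyadenylated RNA was sequenced from Hotair knockout, Hotair heterozygous and Hotair wildtype cells, with 2 libraries per genotype, all on a background backcrossed to C57BL6. Nothing in the labels says that the 2 libraries of a genotype came from separate animals or cultures, so the p-values speak of how these libraries vary, and that variation may be technical. The 6 ChIP-seq libraries of the series were not analysed here.

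Retinoic acid is a small signal made from vitamin A. Retinol is oxidised to retinaldehyde, which the ALDH1A enzymes oxidise to retinoic acid, and CYP26 enzymes break the acid down. Inside the cell, CRABP1 and CRABP2 carry it. CRABP2 hands it to the nuclear receptors, and CRABP1 is best known for holding it in the cytoplasm and feeding its breakdown. The receptors RARA, RARB and RARG pair with RXR proteins on DNA. Retinoic acid sets position along the body axis in the embryo, in part by switching on Hox genes, and excess of it disturbs the tail and limbs. Hotair is transcribed from the HoxC cluster, and the series asks how its disruption changes homeotic and imprinted genes.

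RAR and RXR proteins bind pairs of a short hexamer, and promoter sequences show which members carry that hexamer at the start of the gene. RefSeq promoters of GRCm38.p6, each covering 250 bases before and 50 after an annotated start, were found for 7 of the 9 members (12 promoters). They were searched on both strands for AGGTCA, for AGTTCA, for GGGTCA and for GGTTCA, and for direct repeats of these spaced by 1, 2 or 5 bases. At least 1 hexamer stood in 5 of the 12 promoters, belonging to 4 members (Aldh1a1, Rara, Rarb and Rarg), and in 43.7% of all 32851 promoters of the same length. A direct repeat stood in 1 member promoter, that of Rarb, and in 0.588% of all promoters. Shown are the promoters of Rarb, which holds the repeat, and of Crabp1 and Cyp26b1, the members with the highest level and with the highest fold between genotypes. They are read 5′ to 3′ on the strand of the gene, with hexamer matches in capitals.
Rarb, GRCm38.p6 chr14:16575427-16575726, minus strand: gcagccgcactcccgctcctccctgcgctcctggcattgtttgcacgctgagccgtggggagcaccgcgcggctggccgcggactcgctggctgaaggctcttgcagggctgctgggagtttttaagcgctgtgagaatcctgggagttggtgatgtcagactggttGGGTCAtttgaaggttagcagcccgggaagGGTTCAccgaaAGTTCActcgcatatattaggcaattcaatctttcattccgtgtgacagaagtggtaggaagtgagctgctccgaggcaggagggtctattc
Crabp1, GRCm38.p6 chr9:54764498-54764797, plus strand: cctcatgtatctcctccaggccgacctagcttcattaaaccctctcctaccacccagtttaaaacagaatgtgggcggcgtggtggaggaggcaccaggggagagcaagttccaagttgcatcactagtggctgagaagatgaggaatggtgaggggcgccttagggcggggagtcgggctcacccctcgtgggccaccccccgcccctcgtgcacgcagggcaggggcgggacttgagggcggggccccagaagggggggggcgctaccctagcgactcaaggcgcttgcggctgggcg
Cyp26b1, GRCm38.p6 chr6:84593761-84594060, minus strand: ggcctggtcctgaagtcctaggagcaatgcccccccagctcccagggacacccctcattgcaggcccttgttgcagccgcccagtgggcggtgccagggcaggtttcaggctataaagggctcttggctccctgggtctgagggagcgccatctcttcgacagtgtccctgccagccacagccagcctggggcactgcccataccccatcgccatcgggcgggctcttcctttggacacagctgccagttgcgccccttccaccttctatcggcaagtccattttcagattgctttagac
In Rarb the first hexamer began 83 bases before the start. The second and the third began 53 and 42 bases before it and form a direct repeat spaced by 5 bases, the arrangement for which this promoter is known as a retinoic acid response element. The Crabp1 and Cyp26b1 windows held none of the 4 hexamers, which says only that these letters are not in these windows.

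The libraries held 48.1M and 46.0M aligned read equivalents in knockout cells, 33.2M and 31.2M in heterozygous cells and 29.6M and 27.9M in wild-type cells. A read equivalent is 74 aligned bases. Values are RPKM (reads scaled to gene length and library depth), and differences are on the scale of log2(RPKM + 1), which understates the change of low genes. Hotair was listed at 0 in both knockout libraries, at 0.213 and 0.172 RPKM in heterozygous and at 0.247 and 0.183 RPKM in wild-type libraries. All 11 fibroblast markers examined were measured, with summed levels between 5510 and 5920 RPKM per library, although single markers moved both ways in knockout against wild type (4 higher, 6 lower, among them Lum with a mean of 13.6 RPKM in knockout and 2.31 RPKM in wild type, and Thy1 with 94.8 and 190 RPKM). The 10 keratinocyte markers summed to between 0.803 and 1.1 RPKM per library. The 10 macrophage and leukocyte markers summed to 39.6 and 39.0 RPKM in knockout, 3.78 and 3.32 RPKM in heterozygous and 4.80 and 4.78 RPKM in wild-type libraries. All 4 of these markers that passed the filter on low values (Cd68, Csf1r, Lyz2 and Tyrobp) were higher in knockout cells, while Ptprc and Aif1 stayed under 0.1 RPKM. Csf1r and Tyrobp passed that filter through the knockout libraries alone, so their place among the 4 is no test of a difference. The 6 osteoclast markers summed to 36.7 RPKM in each knockout library, 13.9 and 16.2 RPKM in heterozygous and 20.2 RPKM in each wild-type library. Of these, Acp5 was higher in knockout (means of 23.6 RPKM in knockout, 0.668 in heterozygous and 0.695 in wild type) and Ctsk lower (11.0, 14.3 and 19.3 RPKM). Acp5 too passed the filter through the knockout libraries alone. The 9 Schwann cell and melanocyte markers summed to 14.2 and 14.8 RPKM in knockout, 31.4 and 30.6 RPKM in heterozygous and 25.5 and 25.4 RPKM in wild-type libraries, with Tyr and Mlana at 0 throughout. Of the 6 muscle markers, Myod1 and Myf5 were at 0, and the sum (161 and 162 RPKM in knockout, 163 and 159 in heterozygous, 245 and 246 in wild-type libraries) was nearly all Acta1. The 6 endothelial markers summed to at most 0.264 RPKM in any library. The part of these other cell types in the differences below was not tested, and in bulk RNA fewer cells of a type and less RNA per cell cannot be told apart.

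The 9 members spanned more than 3 powers of 10 in level. Crabp1 was the highest at a mean of 195 RPKM over the 6 libraries, above 99.1% of all genes in the table. Rarg (19.2 RPKM) and Crabp2 (16.3 RPKM) followed, then Rara (6.18), Aldh1a3 (2.30) and Cyp26b1 (1.40). Aldh1a2 (0.287), Aldh1a1 (0.126) and Rarb (0.0445 RPKM) were the lowest. Rarg and Crabp2 could not be ordered in wild-type cells, where Rarg had 17.5 and 16.9 RPKM and Crabp2 17.0 and 17.4 RPKM. In the knockout libraries Aldh1a3 (1.44 and 1.58 RPKM) and Cyp26b1 (1.53 and 1.57 RPKM) could not be ordered either. The ranges of Aldh1a2 (0.180 to 0.439 RPKM) and Aldh1a1 (0.0628 to 0.204 RPKM) overlapped, as did those of Aldh1a1 and Rarb (0.0115 to 0.109 RPKM).

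**Figure D1:**
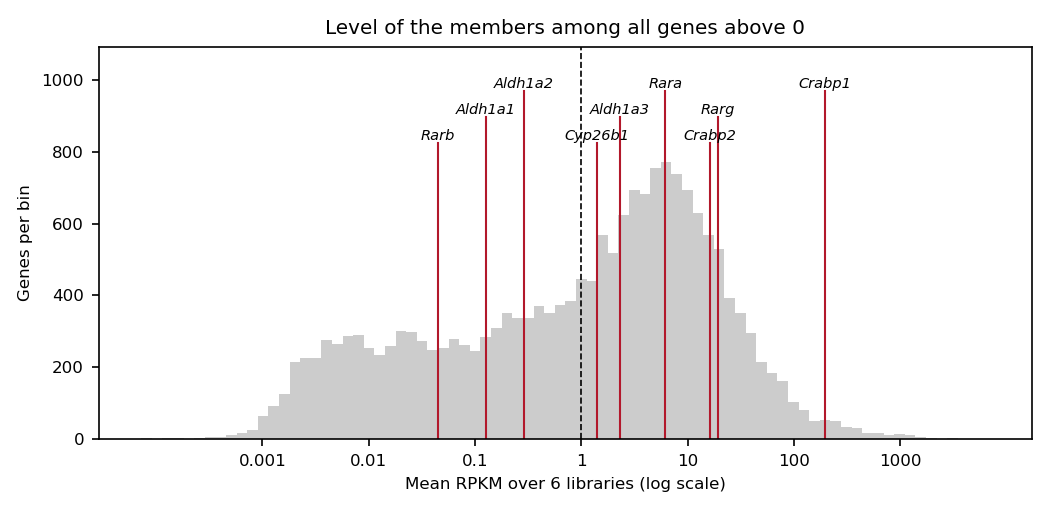
Distribution of the mean RPKM over 6 libraries for all genes above 0 (grey bars, log axis), with the 9 members as red lines and 1 RPKM as a dashed line. Crabp1 stands at 195 RPKM near the upper end, and Aldh1a2, Aldh1a1 and Rarb stand below 1 RPKM.

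The filter of 1 RPKM in at least 2 libraries left 6 of the 9 members in the test, and Aldh1a1, Aldh1a2 and Rarb fell below it. Cyp26b1 passed through its knockout and heterozygous libraries, since both wild-type libraries were under 1 RPKM. In knockout against wild-type cells, 4 members rose (Cyp26b1, Rara, Crabp1 and Rarg) and 2 fell (Aldh1a3 and Crabp2). All 6 passed limma's test at an adjusted p under 0.05, where 67.2% of the 10897 genes tested passed (40.6% higher, 26.6% lower). Higher calls made up 60.4% of all calls in that comparison, 46.7% with quantile normalization and 47.2% with median scaling. The median log2 difference was 0.21 over the 6 members and 0.06 over all genes tested. In heterozygous against wild-type cells, 2 members rose, 2 fell and 2 did not pass, where 52.6% of all genes passed (35.5% higher, 17.1% lower). Higher calls made up 67.5% there, 51.1% with quantile normalization and 45.5% with median scaling. The medians of that comparison were 0.06 for the members and 0.07 for all genes. Between knockout and heterozygous cells, 2 members were higher in knockout and 4 lower, where 51.8% of all genes passed (26.4% higher, 25.4% lower). The libraries of the compared genotypes did not overlap for any of the 6 members in knockout against wild type (83.8% of all genes tested) or against heterozygous (77.8%), and overlapped for Crabp2 only in heterozygous against wild type (no overlap in 76.0% of all genes). With so much of the table called, the number of members called is not a result about them, and they are described by their sizes and patterns. None of the 6 reached a difference of 1 on the log2(RPKM + 1) scale. As calls in knockout against wild type, 2.55% of all genes tested reached it. The plain RPKM ratio of Cyp26b1 to wild type was 2.56 in knockout and 3.37 in heterozygous cells.

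**Figure D2:**
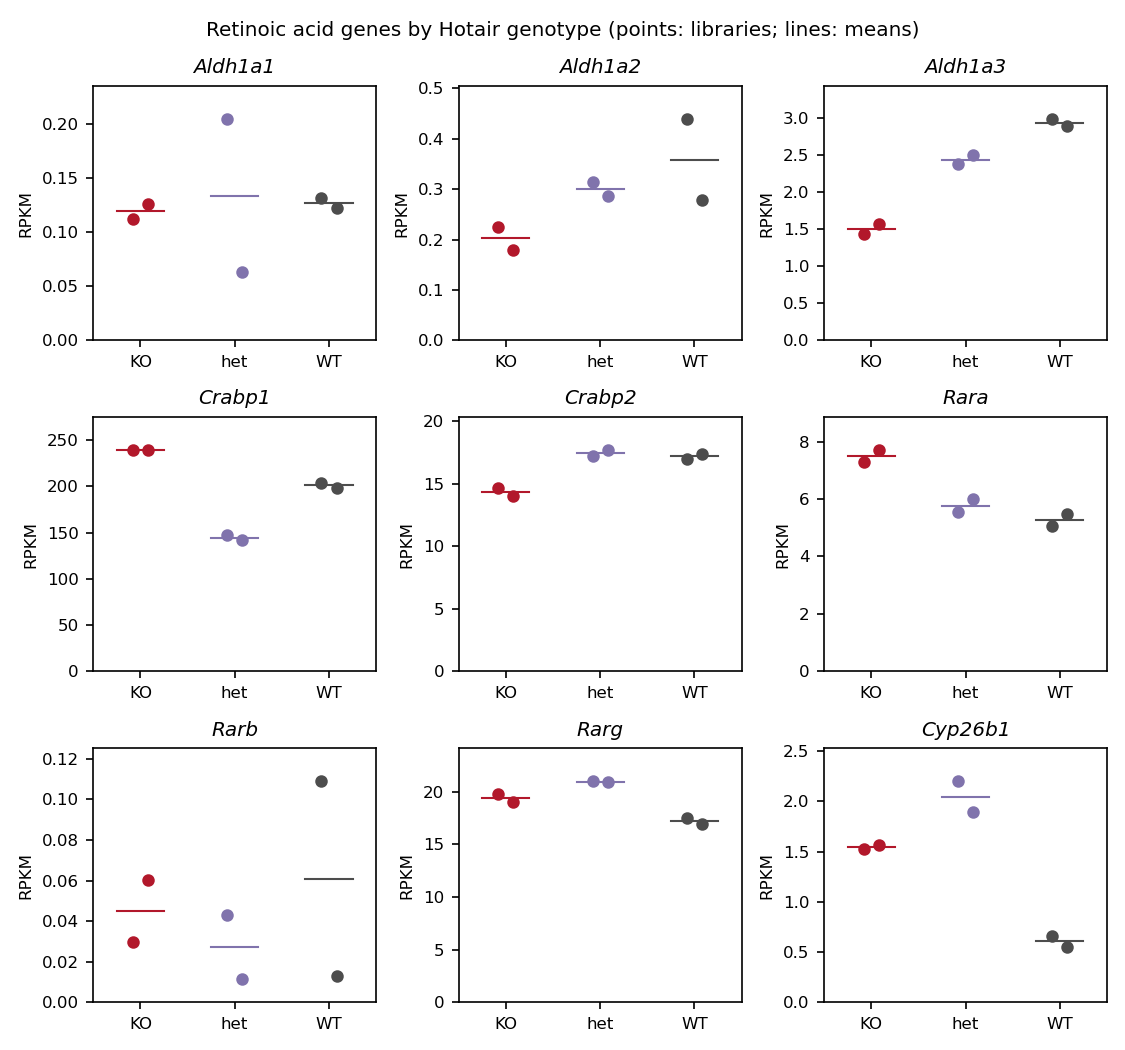
RPKM of the 9 members (one panel each, axes from 0) in knockout, heterozygous and wild-type cells. Points are the 2 libraries per genotype and lines their means. Aldh1a3 averages 1.51 RPKM in knockout, against 2.95 RPKM in wild type, and Crabp1, Rarg and Cyp26b1 have their extreme values in heterozygous cells.

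Aldh1a3, the synthesis enzyme that supplies retinoic acid to eye, nose and other epithelia in the embryo, was the main ALDH1A transcript. It made up between 81.1% and 87.8% of the summed RPKM of the 3 enzymes in every library. Its level was 1.44 and 1.58 RPKM in knockout, 2.38 and 2.50 RPKM in heterozygous and 2.99 and 2.90 RPKM in wild-type libraries. The 3 genotypes did not overlap, with knockout lowest and heterozygous between. Aldh1a3 fell in knockout against wild-type cells (1.51 ± 0.102 against 2.95 ± 0.0669 RPKM, SD, n = 2), by 0.65 ± 0.05 (SE) on the log2 scale (limma adjusted p = 3.13e-05). That size exceeded those of 90.9% of genes tested. Knockout was also lower than heterozygous, with a log2 difference of -0.45 ± 0.05 (adjusted p = 0.000431). The heterozygous cells differed from wild type by -0.20 ± 0.05 (adjusted p = 0.0165). That difference did not pass without heterozygous library 1 (-0.17, adjusted p = 0.0782) or without wild-type library 1 (-0.18, adjusted p = 0.0699), and was -0.32 after quantile normalization.

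Aldh1a2, the enzyme that makes most of the retinoic acid of the early trunk, had 0.225 and 0.180 RPKM in knockout, 0.315 and 0.286 RPKM in heterozygous and 0.439 and 0.279 RPKM in wild-type libraries. The knockout libraries lay below the others. These values rest on at least 8.86 to 14.8 read equivalents per library, counted at the shortest gene length that gives whole bases. In a fit without the filter the log2 difference between knockout and wild type was -0.17 (95% interval -0.33 to -0.02, adjusted p = 0.0695), where 44.2% of 18888 genes passed. Aldh1a1, known from the dorsal retina and adult liver, had 0.112 and 0.126 RPKM in knockout, 0.204 and 0.0628 RPKM in heterozygous and 0.131 and 0.122 RPKM in wild-type libraries. The heterozygous libraries spanned the others, and no difference was detectable at this depth. Aldh1a1 is uncertain as a single gene, because its close copy Aldh1a7 was at similar levels (0.137 to 0.287 RPKM) and the sources used here do not say how the authors treated shared reads.

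Crabp1 was the member with the deepest coverage, from at least 3288 to 8569 read equivalents per library. It had 239 RPKM in each knockout library, 147 and 142 RPKM in heterozygous and 204 and 198 RPKM in wild-type libraries. The heterozygous libraries were the lowest and the knockout libraries the highest, with no overlap. Crabp1 rose by 0.25 ± 0.02 on the log2 scale in knockout against wild type (adjusted p = 4.98e-05), a size exceeding those of 56.6% of genes tested. In heterozygous against wild-type cells it fell by 0.47 ± 0.02 (adjusted p = 5.5e-06), and 92.8% of genes tested had smaller differences there. Knockout against heterozygous gave 0.72 ± 0.02 (adjusted p = 1.18e-06), which tests only whether these 2 genotypes differ. Their mean levels were 239 ± 0.383 and 144 ± 3.73 RPKM (SD, n = 2), a ratio of 1.66.

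Crabp2 had 14.7 and 14.0 RPKM in knockout, 17.2 and 17.7 RPKM in heterozygous and 17.0 and 17.4 RPKM in wild-type libraries. Knockout was below both other genotypes, which overlapped each other. The log2 difference was -0.25 ± 0.04 in knockout against wild type (adjusted p = 0.000673) and -0.27 ± 0.04 in knockout against heterozygous (adjusted p = 0.000881). Heterozygous against wild type gave 0.02 (95% interval -0.07 to 0.10, adjusted p = 0.695), and -0.06 after median scaling. Crabp1 thereby made up 94.2% and 94.5% of the summed RPKM of both binding proteins in knockout, 89.5% and 88.9% in heterozygous and 92.3% and 91.9% in wild-type libraries.

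Of the receptors, Rarg was the most abundant, as it is known to be in skin, with 71.0% to 78.9% of the summed RPKM of the 3. Its gene lies on chromosome 15, which also carries the HoxC cluster. Rarg had 19.8 and 19.0 RPKM in knockout, 21.0 and 20.9 RPKM in heterozygous and 17.5 and 16.9 RPKM in wild-type libraries. All knockout and heterozygous libraries were above the wild-type ones. The log2 difference from wild type was 0.17 ± 0.03 in knockout (adjusted p = 0.00413) and 0.27 ± 0.03 in heterozygous cells (adjusted p = 0.00066). After median scaling the knockout value was 0.09 and did not pass (adjusted p = 0.0614). Knockout against heterozygous gave -0.10 ± 0.03 (adjusted p = 0.0387). The call was lost in limma fits without the filter (adjusted p = 0.0515) and without the intensity trend. This call did not hold when any of the 4 knockout or heterozygous libraries was left out (log2 differences from -0.13 to -0.08, adjusted p from 0.0563 to 0.21), or after quantile normalization (-0.06, adjusted p = 0.212).

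Rara, the broadly expressed receptor, had 7.29 and 7.70 RPKM in knockout, 5.55 and 5.99 RPKM in heterozygous and 5.07 and 5.48 RPKM in wild-type libraries. Knockout stood above both other genotypes, which lay close together without overlap. Rara rose by 0.44 ± 0.05 on the log2 scale in knockout against wild type (adjusted p = 0.000283) and was 0.33 ± 0.05 higher in knockout than in heterozygous cells (adjusted p = 0.00208). Heterozygous against wild type gave 0.11 (95% interval -0.02 to 0.24, adjusted p = 0.129). Rara made up 26.9% and 28.7% of summed receptor RPKM in knockout, 20.9% and 22.2% in heterozygous and 22.3% and 24.5% in wild-type libraries. The summed receptor level was 27.1 and 26.8 RPKM in knockout, 26.6 and 26.9 RPKM in heterozygous and 22.7 and 22.4 RPKM in wild-type libraries.

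Rarb, the receptor gene that retinoic acid induces through the repeat in its promoter, was the lowest member. It had 0.0297 and 0.0604 RPKM in knockout, 0.0432 and 0.0115 RPKM in heterozygous and 0.109 and 0.0129 RPKM in wild-type libraries. The genotypes overlapped, and each value stands for few reads (at least 0.5 to 4.5 read equivalents at the shortest gene length that gives whole bases). No difference between genotypes was detectable at this depth. Without the filter the knockout minus wild-type interval was -0.14 to 0.10 on the log2(RPKM + 1) scale.

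Cyp26b1, which breaks retinoic acid down and limits its action in limb, skin and gonad, had the widest fold between genotypes of the members tested. It had 1.53 and 1.57 RPKM in knockout, 2.20 and 1.89 RPKM in heterozygous and 0.665 and 0.548 RPKM in wild-type libraries. Every knockout and heterozygous library was above both wild-type ones. Mean levels were 1.55 ± 0.0313 RPKM in knockout, 2.04 ± 0.213 RPKM in heterozygous and 0.606 ± 0.0826 RPKM in wild-type cells (SD, n = 2), an RPKM ratio to wild type of 2.56 for knockout and 3.37 for heterozygous. Wild-type values rest on at least 47.8 and 37.1 read equivalents. On the log2 scale Cyp26b1 rose by 0.67 ± 0.07 in knockout (adjusted p = 0.000103) and by 0.92 ± 0.07 in heterozygous cells (adjusted p = 4.87e-05) against wild type. In the heterozygous comparison 98.4% of genes tested had smaller sizes. Cyp26b1 passed the filter only through the genotypes where it was high, so these p-values and this rank are a description and not a test. In a limma fit without the filter the differences were again 0.67 and 0.92. There the adjusted p was 0.00132 in knockout and 0.00112 in heterozygous cells, where 44.2% and 29.6% of all genes passed. For this low gene the size depended on the settings. The knockout difference was 1.23 with a pseudocount of 0.1, 0.22 with a pseudocount of 5 and 0.40 after quantile normalization, and the heterozygous difference 1.60 and 0.33 with those pseudocounts, all past the threshold. Knockout against heterozygous gave -0.25 ± 0.07 (adjusted p = 0.0172). That call did not pass without knockout library 1 (-0.24, adjusted p = 0.0855), without knockout library 2 (-0.27, adjusted p = 0.0642) or without heterozygous library 1 (-0.18, adjusted p = 0.0917).

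**Figure D3:**
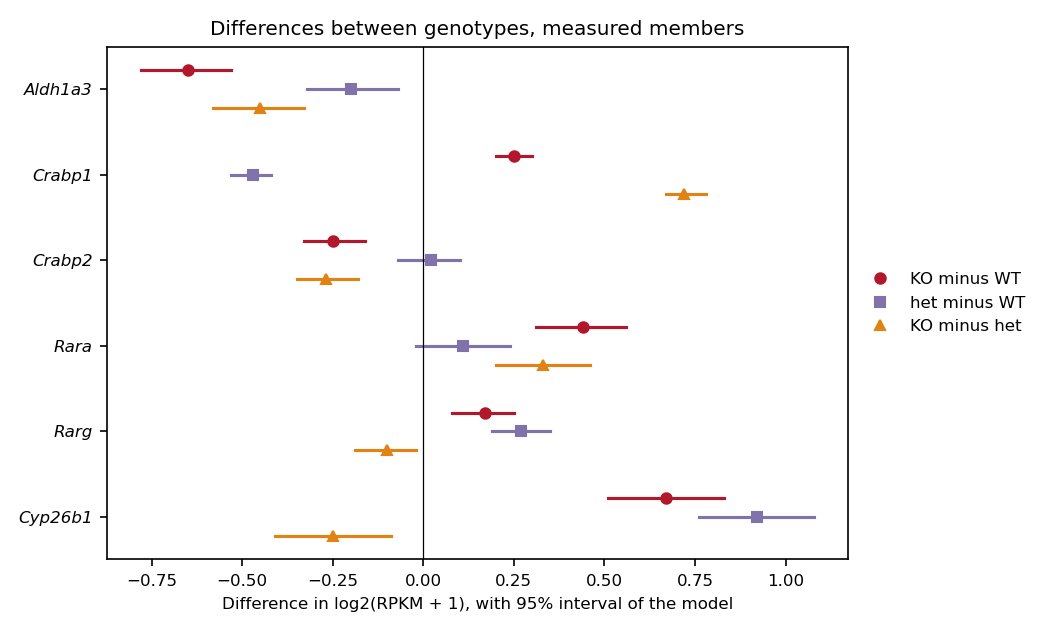
Differences in log2(RPKM + 1) between genotypes for the 6 members that passed the filter, with 95% intervals of the limma model. Circles are knockout minus wild type, squares heterozygous minus wild type and triangles knockout minus heterozygous. Crabp1 has intervals on opposite sides of 0 in knockout (0.25) and heterozygous cells (-0.47), and Cyp26b1 lies above 0 in both (0.67 and 0.92).

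The heterozygous cells were not simply between the other genotypes. Both heterozygous libraries lay outside all knockout and wild-type libraries for 3 of the 6 members, above them for Rarg and Cyp26b1 and below them for Crabp1. Among all 10897 genes tested this held for 26.9%. For Aldh1a3 and Rara the heterozygous libraries lay between the others. Differences of knockout and of heterozygous cells from wild type use the same wild-type libraries and are therefore not independent.

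The genes most like Cyp26b1 across the 6 libraries, by Euclidean distance between gene-centred log2 profiles, were Tmeff2, Cxcr7, Nrp2, Tnfrsf1b and Serpina3f (distances 0.128 to 0.198). Tmeff2, a membrane protein with follistatin-like domains, averaged 1.10 RPKM in knockout, 1.56 RPKM in heterozygous and 0.271 RPKM in wild-type cells. Nrp2, a neuropilin that binds semaphorins and vascular growth factors, averaged 9.30 RPKM in knockout, 11.2 RPKM in heterozygous and 5.88 RPKM in wild-type cells. The nearest to Aldh1a3 were Pdlim2, Gng11, Chmp1a, Cmtm6 and Crip1 (distances 0.058 to 0.089). Pdlim2, a cytoskeletal adaptor, averaged 25.8 RPKM in knockout, 35.1 RPKM in heterozygous and 41.2 RPKM in wild-type cells.

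The wider pathway was described with 8 lists ordered by role, of which 70 genes had a row and 41 passed the filter, the 6 members included. Of the 41, 8 were under 1 RPKM in both libraries of at least 1 genotype and so passed only through the genotypes where they were high (Rdh5, Dhrs9, Adh7, Ncoa1, Kat2b, Cyp26b1, Rarres1 and Hoxb5). In knockout against wild type 21 of the 41 rose, 13 fell and 7 did not pass. The median was 0.08, against 0.06 over all genes. Called were 82.9% of the 41, where 67.2% of all genes tested were (40.6% higher, 26.6% lower). After either quantile normalization or median scaling 17 rose and 16 fell. In heterozygous against wild type 17 rose, 8 fell and 16 did not pass (61.0% called, where 52.6% of all genes were, 35.5% higher and 17.1% lower). After quantile normalization 12 rose and 9 fell there, and after median scaling 14 rose and 11 fell.

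Upstream of retinoic acid, 10 genes that interconvert retinol and retinaldehyde passed the filter. In knockout against wild-type cells 1 rose, 6 fell and 3 did not pass (median -0.16; 40.6% of all genes tested rose and 26.6% fell), and after quantile normalization or median scaling 1 rose and 8 fell. Without knockout library 2, 1 rose and 3 fell. Rdh5, counted among the 6 that fell, was under 1 RPKM in both knockout libraries and passed the filter without them. The 1 that rose was Dhrs9, a dehydrogenase that oxidises retinol. It had 2.77 and 3.09 RPKM in knockout, 2.69 and 2.71 RPKM in heterozygous and 0.801 and 0.786 RPKM in wild-type libraries, and so passed the filter without the wild-type cells, where it was low. The log2 difference from wild type was 1.13 ± 0.06 in knockout (adjusted p = 3.17e-06) and 1.05 ± 0.06 in heterozygous cells (adjusted p = 1.02e-05). Given that filter, these p-values of Dhrs9 are a description and not a test. Dhrs3, which reduces retinaldehyde back to retinol, had 6.10 and 6.06 RPKM in knockout, 8.84 and 8.83 RPKM in heterozygous and 8.39 and 9.41 RPKM in wild-type libraries. It fell by 0.48 ± 0.05 in knockout against wild type (adjusted p = 0.00015). Heterozygous against wild type gave -0.01 ± 0.05 (adjusted p = 0.908), and 0.07 without wild-type library 2. Adh7, an alcohol dehydrogenase active on retinol, had 0.539 and 0.513 RPKM in knockout, 1.37 and 1.43 RPKM in heterozygous and 1.10 and 1.01 RPKM in wild-type libraries, so it passed the filter without the knockout cells, where it was low. Its log2 difference between knockout and wild type was -0.43 ± 0.05 (adjusted p = 0.000338), likewise a description and not a test. Adh5, the formaldehyde-oxidising member of that family, fell by 0.16 ± 0.03 in knockout (adjusted p = 0.00313). Quantile normalization gave -0.68 for Adh7 and -0.09 for Adh5. In heterozygous against wild-type cells 4 of the 10 rose, 2 fell and 4 did not pass (35.5% of all genes tested rose and 17.1% fell). The medians were 0.08 as reported and -0.04 after quantile normalization. The falls numbered 0 without heterozygous library 1 or wild-type library 2, and 1 without any 1 of the other libraries. Of the 8 uptake and storage genes, Dgat1, an acyltransferase that can esterify retinol, was the 1 that passed the filter, and it gave -0.32 ± 0.12 in knockout (adjusted p = 0.0434). That call did not hold without any 1 of the 4 knockout or wild-type libraries (adjusted p from 0.0594 to 0.19).

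Among binding proteins outside the members, Fabp5, a fatty acid carrier that can also bind retinoic acid, had 65.8 and 66.5 RPKM in knockout, 40.8 RPKM in each heterozygous and 79.3 and 78.5 RPKM in wild-type libraries. Like Crabp1 it was lowest in heterozygous cells, with a log2 difference from wild type of -0.93 ± 0.02 (adjusted p = 2.47e-07), and it fell by 0.25 ± 0.02 in knockout against wild type (adjusted p = 4.16e-05). The partner receptor Rxra, which pairs with the RARs, had 12.8 and 13.6 RPKM in knockout, the same in heterozygous and 11.3 and 10.7 RPKM in wild-type libraries. It rose by 0.24 ± 0.05 in knockout (adjusted p = 0.0032) and by 0.24 ± 0.05 in heterozygous cells (adjusted p = 0.00449). Rxrb gave 0.03 ± 0.04 in knockout (adjusted p = 0.58), and -0.04 after quantile normalization. Ppard, a fatty acid receptor, rose by 0.12 ± 0.03 (adjusted p = 0.0107), a call that did not hold after median scaling (0.04, adjusted p = 0.239), without knockout library 2 (0.12, adjusted p = 0.0561) or without wild-type library 2 (0.10, adjusted p = 0.0563). Of the 5 receptors and partners tested, 4 rose in knockout and 0 fell (40.6% and 26.6% of all genes tested), against 2 that rose after median scaling. The count was 3 without knockout library 2 or wild-type library 2.

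Receptor corepressors and coactivators were mostly higher in knockout cells. Of the 10 measured, 9 rose in knockout against wild type and 1 did not pass (median 0.38, against 0.06 over all genes, of which 40.6% rose), while after quantile normalization 7 rose and 1 fell (median 0.19). In heterozygous against wild-type cells 6 rose and 4 did not pass (median 0.20; 35.5% of all genes tested rose and 17.1% fell), while after median scaling 5 rose and 1 fell. Kat2b, counted among the 9, passed the filter through its knockout libraries alone, and Ncoa1, counted in both comparisons, passed it without the wild-type libraries. Ncor1, the corepressor that silences unliganded receptors, had 7.80 and 8.07 RPKM in knockout, 6.35 and 6.03 RPKM in heterozygous and 4.38 and 4.68 RPKM in wild-type libraries. The 3 genotypes did not overlap. It rose by 0.69 ± 0.05 in knockout (adjusted p = 1.42e-05), Crebbp by 0.54 ± 0.04, Ep300 by 0.51 ± 0.04 and Ncoa2 by 0.39 ± 0.05 (0.19 after quantile normalization). Crebbp and Ep300 are histone acetyltransferases and Ncoa2 a receptor coactivator, all shared with other nuclear receptors.

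Genes known to be induced by retinoic acid in other settings split in direction. In the list 14 genes were measured, and 7 rose, 5 fell and 2 missed the threshold in knockout against wild type (median 0.11; 40.6% of all genes tested rose and 26.6% fell), against 5 and 5 after quantile normalization and 6 and 6 after median scaling. In heterozygous against wild-type cells 6 rose and 3 fell (35.5% and 17.1% of all genes), against 3 and 4 after quantile normalization and 4 and 4 after median scaling. Cyp26b1, Rarres1 and Hoxb5, counted as rising in both comparisons, were under 1 RPKM in both wild-type libraries. They passed the filter only through genotypes where they were high, so their calls are a description and not a test. Tgm2, a transglutaminase induced by retinoic acid in myeloid cells, had 4.07 and 4.16 RPKM in knockout, 3.32 and 3.81 RPKM in heterozygous and 16.0 and 15.4 RPKM in wild-type libraries, with a log2 difference of -1.70 ± 0.06 in knockout (adjusted p = 5.54e-07). Nav2, a gene of neurite growth, rose by 0.53 ± 0.04 in knockout (adjusted p = 2.3e-05) and by 0.58 ± 0.04 in heterozygous cells (adjusted p = 3.3e-05). Nrip1, a corepressor that retinoic acid induces, rose by 0.40 ± 0.05 in knockout (adjusted p = 0.000284), and by 0.18 after quantile normalization. Without heterozygous library 1 or wild-type library 1, 4 genes of the list rose in heterozygous cells. Among the listed genes, 12 did not pass the filter, Rarb among them. Cyp26a1, the degrading enzyme most sensitive to retinoic acid, was listed at 0 in all 6 libraries.

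**Figure D4:**
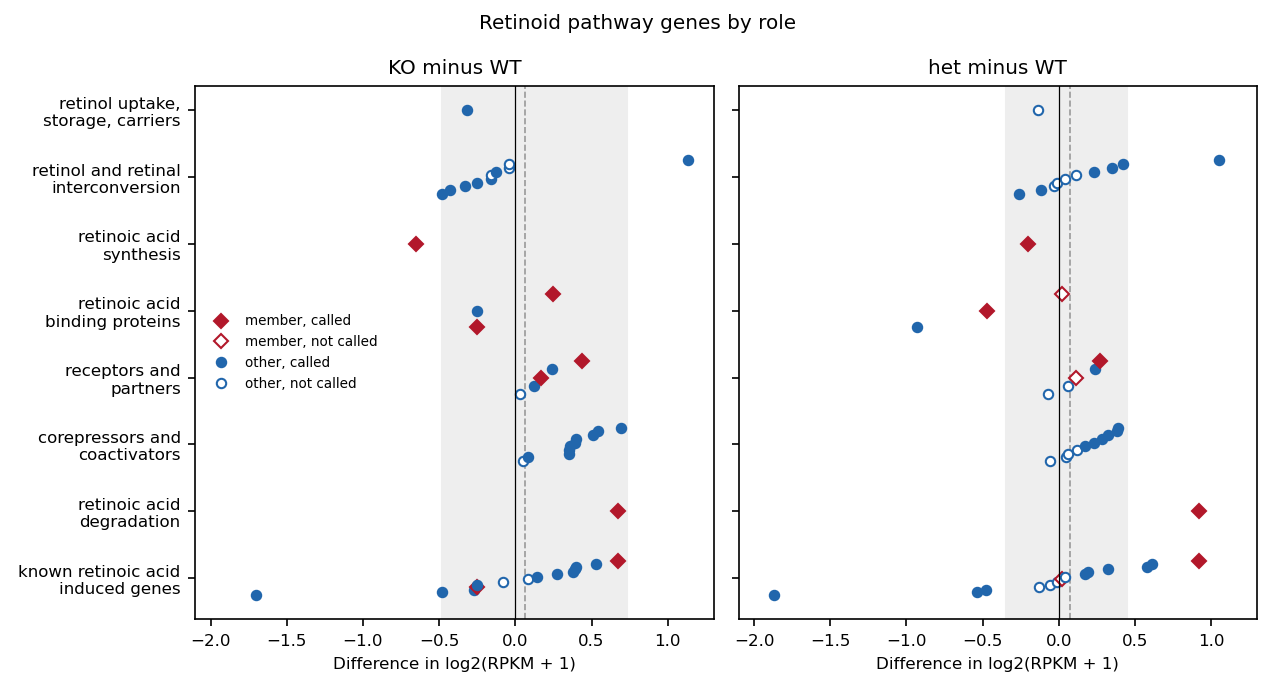
Differences in log2(RPKM + 1) from wild type for the retinoid pathway genes that passed the filter, by role, in knockout (left) and heterozygous cells (right). Red diamonds are members, blue circles other genes, filled where limma's adjusted p was under 0.05. The grey band spans the 5th to 95th percentile of all 10897 genes and the dashed line is their median. The corepressors and coactivators lie right of 0 in knockout (1 of the 10 was called lower after quantile normalization), and Tgm2 lies at -1.70.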

How the data were processed

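RNA-seq libraries of 3 genotypes (2 each) were analysed. Poly(A)-selected RNA went into dUTP libraries, per the labels. TopHat and the build mm9 are named in the submitters' processing notes. The authors deposited 1 RPKM value per symbol and library, with coverage tracks as the source per the file headers. No unit is given, and RPKM was inferred from the values: with reads of 74 bases, a length giving whole aligned bases (tolerance 0.002) existed for 18886 of 18888 genes above 0. Such a length, and any read number from it, is a lower bound. Whether counting used the strand is not stated in the labels or the table.

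The 10897 genes that reached 1 RPKM in at least 2 libraries were kept, on the scale log2(RPKM + 1). Genotype means were fitted together with limma 3.58.1 in R 4.3.3 (3 residual degrees of freedom, eBayes with its trend option). Tests were two-sided, p-values were adjusted by Benjamini-Hochberg over all genes tested, and the threshold was 0.05. The fit was tested on data simulated around the wild-type means, with far fewer genes changed than were called here. That test does not show that the p-values hold for these libraries. An exact permutation test of 2 against 2 libraries cannot go below p = 0.333.

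Members and lists were chosen with earlier results of these data known. Named were all members, up to 4 further genes per list by smallest p (knockout against wild type), the 5 genes nearest to each of the 2 members with the largest difference. Cyp26a1, Aldh1a7, Rdh10 and Rarres1 were named after their values were seen. Alternatives covered pseudocount, filter, scaling, libraries in the fit, intensity trend, replicate block and each library left out; for genes outside the members and for list counts they were added after the data were seen.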

Additional observations from a re-analysis of the deposited data

How the results depend on the processing

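The 6 members tested were recomputed under 15 alternatives in 3 comparisons, 264 values in all, of which 250 kept their direction and their side of the threshold, 13 lost the call and 1 turned its sign, Crabp2 in heterozygous against wild type (-0.06 after median scaling). In knockout against wild type the calls numbered 6 as reported, 5 after median scaling, 4 with a filter at 5 RPKM, where 4 members were left, and 6 without any 1 library. In heterozygous against wild type they numbered 4, but 2 with a filter at 5 RPKM, which removed Aldh1a3 and Cyp26b1, and 3 to 4 without 1 library. In knockout against heterozygous they numbered 6, and fewer without some single libraries. Rarg lost its call there after quantile normalization, without the filter on low values and without the intensity trend. The filter at 5 RPKM removed Aldh1a3 and Cyp26b1 there too. Of 340 values of other named genes, in the comparisons with wild type for which the text gives them and added after the data were seen, 320 kept both, 16 lost the call and 4 turned their sign without being called, namely Rxrb in knockout (-0.04 after quantile normalization, -0.05 after median scaling, -0.01 without wild-type library 1, -0.01 to 0.06 without any 1 library) and Dhrs3 in heterozygous against wild type (0.07 without wild-type library 2, -0.08 to 0.07 without any 1 library). With a filter at 5 RPKM, 4754 of all genes were called in knockout against wild type, against 7324, because fewer genes (6788) were tested, and of the 41 pathway genes 24 were left, of which 20, 15 and 16 were called in the 3 comparisons. With the replicate number as a block the member calls were 6, 4 and 6, as without it, and of the other named values Rdh10 in knockout lost its call. Libraries with the same number did not deviate together across the genes tested (correlations of deviations 0.065, -0.062 and -0.088 over 10897 genes). These correlations cannot exclude a shared preparation that moved few genes. Where a library was left out of a genotype, the lone library was assumed to vary like those of the other genotypes. Depth limits Aldh1a1, Aldh1a2 and Rarb.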

Other observations

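Rdh10 and Rarres1, chosen after their values were seen, had their highest levels in heterozygous cells. Rdh10, which oxidises retinol to retinaldehyde in the embryo, had 3.48 and 3.41 RPKM in knockout, 5.30 and 5.75 RPKM in heterozygous and 3.80 and 3.95 RPKM in wild-type libraries. It rose by 0.42 ± 0.05 on the log2 scale in heterozygous against wild-type cells (limma adjusted p = 0.000447) and gave -0.13 ± 0.05 in knockout against wild type (adjusted p = 0.0471), a call that did not hold with the replicate number as a block (adjusted p = 0.0555) or without any 1 of the 4 knockout or wild-type libraries (adjusted p from 0.0701 to 0.171). That difference was -0.31 after quantile normalization. Rarres1, named for its response to retinoids, had 0.930 and 0.929 RPKM in knockout, 1.38 and 1.51 RPKM in heterozygous and 0.704 and 0.497 RPKM in wild-type libraries. It passed the filter through the heterozygous libraries alone, where it was high, so these levels are a description with no test.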
